A study of Mus musculus with 9 samples.

Results

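Transcripts of 10 CC chemokines were followed in microglia sorted from mouse brain. The members, Ccl2, Ccl3, Ccl4, Ccl5, Ccl6, Ccl7, Ccl8, Ccl9, Ccl12 and Ccl24, were picked by gene symbol from the 23238 symbols of the count tables, and all 10 of 10 were present, each on a single entry. The cells came from wild-type female C57BL/6N mice of 12 weeks and had been gated as CD45+CD11b+P2ry12+. The cells fell into 3 groups, each with 3 libraries, and each library was a pool of 3 mice, so the spread given below is between pools. Normal mice were left untreated. NMO mice were killed 1 day after a one-sided striatal injection of NMO-IgG, patient antibody against aquaporin-4, mixed with human complement, which models neuromyelitis optica, an autoimmune attack on astrocytes. NMO+CL mice had the same injection and, 6 hours before it, clodronate liposomes into the peritoneum, a treatment that removes monocytes and macrophages from the circulation. No group given control IgG or empty liposomes was analysed here, so the parts played by surgery, antibody and complement, or by clodronate and its carrier, cannot be told apart.

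Chemokines are small secreted proteins that steer leukocyte migration through G protein-coupled receptors, and the CC class is named for a pair of adjacent cysteines. Ccl2, Ccl7, Ccl8 and Ccl12 are monocyte chemoattractants, of which Ccl2, Ccl7 and Ccl12 act on Ccr2, the receptor that draws inflammatory monocytes out of marrow and into tissue. Ccl3 and Ccl4 are the macrophage inflammatory proteins, Ccl5 attracts T cells and monocytes, and Ccl3 and Ccl5 bind Ccr1. Ccl6 and Ccl9 are rodent chemokines that signal through Ccr1 and are made constitutively by many myeloid cells, and Ccl24 is an eotaxin that attracts eosinophils through Ccr3. In the brain, microglia, astrocytes, border macrophages and infiltrating monocytes can all release CC chemokines.

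Libraries held 5788234 to 7837219 counts. The ribosomal RNA entry Rn45s took from 16% of them in NMO replicate 2 to 31% in Normal replicate 1. The summed counts of the 10 CC chemokines ran from 3502 in Normal replicate 2 to 14989 in NMO replicate 2. Levels are given as counts and as CPM, the counts relative to the TMM-scaled library total, with mean ± SD between the 3 libraries of a group. Reads came from transcript ends, so CPM are not scaled by length. Tests compare groups, while shares and ratios between genes are given as descriptions. Of the 10 genes 9 passed the filter on low counts and were tested with edgeR's quasi-likelihood test, with p adjusted over 12292 genes, and an adjusted p under 0.05 counted as a call. The gate was checked on 12 microglia markers, whose summed level was 39670 ± 2747 CPM for Normal, 33654 ± 2435 for NMO and 24196 ± 4462 for NMO+CL. Of these 12 markers, 1 was called lower in NMO than in Normal, 4 were called lower in NMO+CL than in NMO, and 9 in NMO+CL against Normal, where 0.0244%, 1.07% and 4.43% of all tested genes were called lower. P2ry12, the sort marker, was at 2443 ± 337, 1648 ± 100 and 353 ± 92.1 CPM in the 3 groups, and fell in NMO+CL against NMO (log2 fold change -2.22, edgeR adjusted p = 1.73e-05). The library NMO replicate 2 stood apart in holding 0 counts of Cbr2, a border macrophage gene, of which the other libraries held 741 to 2467, and values without it are given where a call turned on it. In sorted pools a change in the mix of cells and a change in RNA per cell cannot be told apart.

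**Figure D1:**
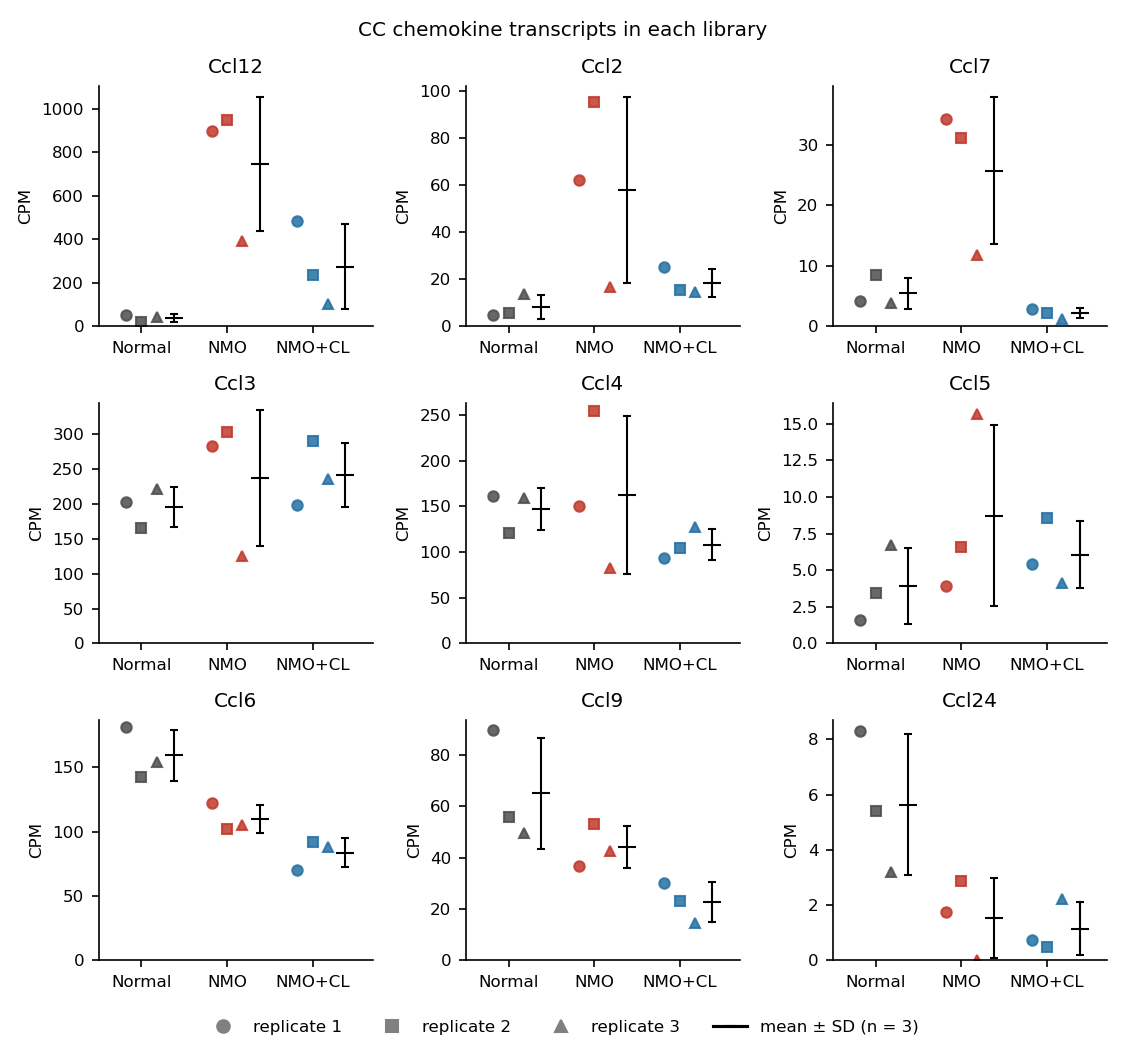
CPM of each of the 9 CC chemokines with counts (vertical axes, linear from 0) in every library of Normal, NMO and NMO+CL, with symbols for the replicate and bars for mean ± SD (n = 3). Ccl12, Ccl2 and Ccl7 were above every Normal library in all NMO libraries, and Ccl6 was lower in each NMO+CL library than in any library of the other groups.

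NMO was set against Normal to ask which chemokine transcripts microglia held 1 day after the injection. Of the 4 monocyte chemoattractants, Ccl12 rose 19.1-fold and Ccl2 rose 7.05-fold, Ccl7 did not pass the test and Ccl8 had no counts. Ccl3, Ccl4, Ccl5, Ccl6, Ccl9 and Ccl24 did not pass the test either. Of the 9 tested chemokines 2 were called higher and 0 lower, where 0.472% of all tested genes were called higher and 0.0244% lower. The median log2 fold change of the 9 was 0.27, against -0.01 over all genes tested. Library ranges were apart for 3 chemokines that were higher in NMO (Ccl2, Ccl7 and Ccl12) and 2 that were lower (Ccl6 and Ccl24), where 9.21% of all tested genes were higher with ranges apart and 8.2% lower.

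Ccl12, the mouse chemokine also known as MCP-5, had 326, 132 and 270 counts in the Normal libraries (39.1 ± 17 CPM, n = 3). In NMO it had 7134, 7913 and 2458 counts (746 ± 306 CPM). The lowest NMO library, replicate 3, was at 394 CPM, and the highest Normal library, replicate 1, was at 51.9. The fitted log2 fold change was 4.26 (standard error 0.50, 95% interval 3.20 to 5.31, adjusted p = 0.000379). The call held in 17 of 17 alternative fits, whose adjusted p ran up to 0.00854.

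Ccl2, the main ligand of Ccr2, had 31, 39 and 83 counts in Normal (8.26 ± 4.96 CPM, n = 3). The NMO libraries had 495, 797 and 104 counts (58.1 ± 39.5 CPM), so that replicates 1 and 2 were far above Normal and replicate 3, at 16.7 CPM, was close to Normal replicate 3, at 14. The fitted log2 fold change was 2.82 (standard error 0.55, 95% interval 1.66 to 3.97, adjusted p = 0.0258). The call rested on single libraries. It was lost without Normal replicate 1 (adjusted p = 0.153), Normal replicate 2 (0.154), NMO replicate 1 (0.0866) or NMO replicate 2 (0.131), as well as under limma-voom (0.159), in the fit with a replicate block (0.0691) and with only the 2 groups compared (0.0573).

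Ccl7, also called MCP-3, had 26, 56 and 23 counts in Normal (5.48 ± 2.56 CPM, n = 3) and 272, 260 and 74 in NMO (25.7 ± 12.1 CPM). Each NMO library was above every Normal library, the nearest being NMO replicate 3 at 11.8 CPM and Normal replicate 2 at 8.43. The log2 fold change of 2.23 (standard error 0.59, 95% interval 0.99 to 3.47) did not pass the test (adjusted p = 0.119). It was called with the DESeq2 Wald test (0.0286) and with no filter on low counts (0.0448). Ccl8, the remaining monocyte chemoattractant and the next gene after Ccl12 on the chromosome, had 0 counts in 9 of 9 libraries. A count of 0 allows up to 3 counts, or 0.383 to 0.518 CPM of the unscaled library, by counting error alone.

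The 4 monocyte chemoattractant genes lie in a single cluster. On GRCm38 (GENCODE M21) Ccl2 is at chr11:82035571-82037453, Ccl7 at chr11:82045712-82047525, Ccl12 at chr11:82101845-82103400 and Ccl8 at chr11:82115185-82116799, each on the plus strand. Ccl7 starts 8.26 kb after the end of Ccl2, and Ccl8 starts 11.8 kb after the end of Ccl12. The gene between Ccl7 and Ccl12, the eotaxin gene Ccl11, had 0 counts in every library, as Ccl8 had. Cluster neighbours thus ranged from the most raised of the 9 chemokines to no counts at all. The last 300 bases of the annotated transcripts, where QuantSeq reads fall, held no stretch of at least 75 bases at 90% identity or more between any of the 10 members and another gene, and no member's exons overlap those of another gene.

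Because Ccl12 was the most raised chemokine and its neighbour Ccl8 had no counts, the 250 bases before the start of each are shown (RefSeq, GRCm38.p6, plus strand, chr11:82101595-82101844 for Ccl12 and chr11:82114935-82115184 for Ccl8). Capitals mark the motifs found. Promoter entries were found for 5 of the 10 members (Ccl3, Ccl6, Ccl8, Ccl9 and Ccl12).
Ccl12: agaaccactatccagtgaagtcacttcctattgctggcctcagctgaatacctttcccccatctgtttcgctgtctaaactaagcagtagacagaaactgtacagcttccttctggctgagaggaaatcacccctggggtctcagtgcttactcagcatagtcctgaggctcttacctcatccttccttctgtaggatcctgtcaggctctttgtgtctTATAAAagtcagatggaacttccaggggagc
Ccl8: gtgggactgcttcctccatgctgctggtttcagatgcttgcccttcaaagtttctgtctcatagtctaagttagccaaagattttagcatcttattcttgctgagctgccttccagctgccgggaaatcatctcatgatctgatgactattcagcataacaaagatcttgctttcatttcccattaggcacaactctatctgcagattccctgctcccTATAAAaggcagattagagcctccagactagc

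Motifs were searched on both strands. They were the NF-kB motif (GGGA, any 2 bases, then TTCC), the AP-1 motif (TGANTCA), the interferon response element (GAAA, any 2 bases, then GAAA) and the TATA box (TATAAA). Among 32851 promoters of the same length these occurred in 1.21%, 6.75%, 2.98% and 12.4%. The Ccl12 and Ccl8 stretches each held TATAAA at nearly the same place, 31 to 26 bases before the start in Ccl12 and 32 to 27 in Ccl8, and none of the other motifs. Aligned end to end they were identical at 150 of 270 alignment columns (55.6%), the highest of the 10 pairs among the 5 promoters, whose other pairs ran from 43.7% to 50.4%. The promoters of the gene with the largest rise and of the gene without counts therefore held the same one of these motifs, as a description of the letters alone.

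Ccl3, Ccl4 and Ccl5 did not pass the test in NMO against Normal. Ccl3 had 1274, 1095 and 1316 counts in Normal (196 ± 28.9 CPM, n = 3) and 2250, 2529 and 781 in NMO (237 ± 97.4 CPM). Ccl4 had 1008, 806 and 947 counts in Normal (147 ± 22.3 CPM) and 1196, 2118 and 517 in NMO (162 ± 86 CPM). For both genes NMO replicate 3 was below every Normal library and NMO replicate 2 was above every one, so the groups overlapped. The log2 fold change was 0.27 for Ccl3 (95% interval -0.30 to 0.84, adjusted p = 0.88). That of Ccl4 was 0.14 (95% interval -0.48 to 0.77, adjusted p = 0.964), and without NMO replicate 2 its sign turned, to -0.34. Both intervals end below a 2-fold change in either direction. Ccl5, or RANTES, which also draws T cells, had only 10, 23 and 40 counts in Normal and 31, 55 and 98 in NMO, with overlapping ranges and a log2 fold change of 1.15 (95% interval -0.55 to 2.85, adjusted p = 0.748). Single libraries moved this value, to 0.40 without NMO replicate 3 and to 1.76 without Normal replicate 3.

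The constitutive myeloid chemokines were not called between NMO and Normal. Ccl6 had 1134, 944 and 918 counts in Normal (159 ± 19.7 CPM, n = 3) and 969, 849 and 653 in NMO (109 ± 10.9 CPM). Its ranges were apart, from 102 to 122 CPM in NMO and from 142 to 181 in Normal, with a log2 fold change of -0.54 (95% interval -0.97 to -0.11, adjusted p = 0.366). Ccl9 had 564, 371 and 295 counts in Normal and 293, 444 and 266 in NMO. NMO replicate 2, at 53.1 CPM, lay above Normal replicate 3, at 49.6, and the log2 fold change was -0.56 (95% interval -1.23 to 0.11, adjusted p = 0.638). Ccl24 had few counts, with 52, 36 and 19 in Normal and 14, 24 and 0 in NMO. Its levels were 5.63 ± 2.55 and 1.54 ± 1.45 CPM, and the log2 fold change of -1.85 had an interval too wide to give a direction (-4.89 to 1.20, adjusted p = 0.79). Without NMO replicate 2 it was -2.64 (adjusted p = 0.729).

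**Figure D2:**
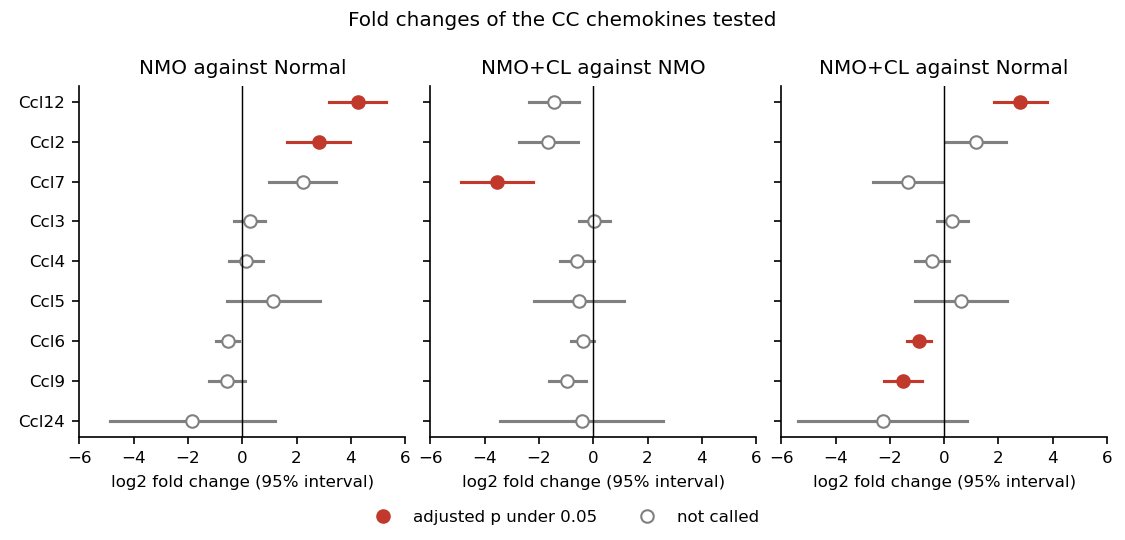
Fitted log2 fold change (horizontal axes) with its 95% interval for the 9 CC chemokines tested, in NMO against Normal, NMO+CL against NMO, and NMO+CL against Normal, with filled symbols for an adjusted p under 0.05. Ccl12 and Ccl2 were called in the first comparison, Ccl7 in the second, and Ccl12, Ccl6 and Ccl9 in the third.

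NMO+CL was set against NMO to ask how clodronate treatment altered these transcripts in injected mice. Ccl7 fell 11.8-fold, and it alone among the 9 chemokines was called. Of the 9, 0 were called higher and 1 lower, where 0.529% of all tested genes were called higher and 1.07% lower. The median log2 fold change was -0.59, against -0.01 over all genes tested. Ranges were apart for 0 chemokines that were higher and for 3 that were lower in NMO+CL (Ccl6, Ccl7 and Ccl9), where the shares of all tested genes were 7.89% and 9.22%. This comparison shares its NMO libraries with the one above, so the values of the comparisons are not independent.

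Ccl7 had 20, 14 and 8 counts in the NMO+CL libraries (2.16 ± 0.824 CPM, n = 3), below the 272, 260 and 74 counts of NMO and with no overlap. The fitted log2 fold change was -3.56 (standard error 0.63, 95% interval -4.89 to -2.23, adjusted p = 0.00789). The highest NMO+CL library stood at 2.92 CPM and the lowest Normal library at 3.87, so Ccl7 was also below Normal in 3 of 3 libraries, but that difference did not pass the test (log2 fold change -1.34, 95% interval -2.61 to -0.07, adjusted p = 0.196). The call against NMO was lost without NMO replicate 1 (log2 fold change -3.28, adjusted p = 0.064) and with limma-voom (-3.52, 0.0782), and held in the other 15 of 17 alternatives.

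Ccl12 and Ccl2 were lower on average in NMO+CL than in NMO, without passing the test. Ccl12 had 3323, 1456 and 637 counts in NMO+CL (274 ± 194 CPM, n = 3), and its highest library, replicate 1 at 485 CPM, lay above NMO replicate 3 at 394. The log2 fold change was -1.44 (standard error 0.44, 95% interval -2.37 to -0.51, adjusted p = 0.129). A call was made without NMO+CL replicate 1 (adjusted p = 0.0134 and a log2 fold change of -2.14), with no filter on low counts (4.94e-09), under limma-voom (0.0197) and in the fit with a replicate block (0.0334). For some genes the edgeR fit with no filter gave far smaller adjusted p at nearly the same fold change. Ccl2 in NMO against Normal had 7.76e-09 at 2.83 there, beside 0.0258 at 2.82. These p are therefore not read as a measure of strength. Ccl2 had 175, 95 and 92 counts in NMO+CL (18.6 ± 6.06 CPM), and NMO replicate 3, at 16.7 CPM, lay within that range. Its log2 fold change was -1.65 (95% interval -2.74 to -0.55, adjusted p = 0.144), and it was called without NMO replicate 3 (-2.07, 0.0258) and with no filter on low counts (0.00195).

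Ccl3 showed the smallest difference of the 9 between NMO+CL and NMO in the main fit. It ran from -0.26 to 0.25 on the log2 scale over the alternatives, turning its sign. It had 1363, 1796 and 1472 counts in NMO+CL (242 ± 46.3 CPM, n = 3), within the range of NMO, and its log2 fold change of 0.03 had a 95% interval of -0.54 to 0.60 (adjusted p = 0.988). Ccl4, its neighbour, had 638, 641 and 793 counts (108 ± 17.3 CPM), also within the NMO range (log2 fold change -0.59, 95% interval -1.22 to 0.04, adjusted p = 0.448). Ccl5 had 37, 53 and 26 counts (log2 fold change -0.52, 95% interval -2.20 to 1.15, adjusted p = 0.869), and Ccl24 had 5, 3 and 14 (-0.43, -3.43 to 2.58, 0.96). The intervals of Ccl5 and Ccl24 hold changes of more than 2-fold either way. Both turned their sign with 1 library left out, Ccl5 to 0.22 without NMO replicate 3 and Ccl24 to 0.37 without NMO replicate 2.

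NMO+CL against Normal gives the injection and clodronate together. Ccl12 rose 7.02-fold, while Ccl9 fell 2.85-fold and Ccl6 fell 1.9-fold. Of the 9 chemokines 1 was called higher and 2 lower, where 4.79% of all tested genes were called higher and 4.43% lower, and the median log2 fold change was -0.45 against -0.01 over all genes tested. Ranges were apart for 2 that were higher (Ccl2 and Ccl12) and 4 that were lower (Ccl6, Ccl7, Ccl9 and Ccl24), where the shares of all tested genes were 13.8% and 14.9%. Both groups also enter the comparisons above.

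Ccl12 ran from 102 to 485 CPM in NMO+CL and from 19.9 to 51.9 in Normal, with no overlap (log2 fold change 2.81, standard error 0.47, 95% interval 1.82 to 3.80, adjusted p = 0.00099). This call held in 17 of 17 alternatives, but its size rested in part on NMO+CL replicate 1, without which the log2 fold change was 2.11 (adjusted p = 0.00267). Ccl2 was higher than in any Normal library in 3 of 3 NMO+CL libraries, but the nearest values, 14.7 and 14 CPM, almost met, and the log2 fold change of 1.17 was not called (95% interval 0.05 to 2.29, adjusted p = 0.2). Without Normal replicate 3 it was 1.78 (adjusted p = 0.106), and it was called only with no filter on low counts (0.0393).

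Ccl6 had 483, 568 and 551 counts in NMO+CL (83.6 ± 11.5 CPM, n = 3), below every library of both other groups. Against Normal its log2 fold change was -0.93 (standard error 0.20, 95% interval -1.36 to -0.50, adjusted p = 0.00728), called in 17 of 17 alternatives. Against NMO it was -0.39 (95% interval -0.82 to 0.04, adjusted p = 0.463). Ccl9 had 208, 144 and 92 counts (22.8 ± 7.82 CPM), again below every library of both other groups, with a log2 fold change against Normal of -1.51 (standard error 0.33, 95% interval -2.20 to -0.82, adjusted p = 0.00638). Without Normal replicate 1, its highest library at 89.9 CPM, the call of Ccl9 was lost (-1.20, adjusted p = 0.0549). Against NMO the log2 fold change of Ccl9 was -0.95 (95% interval -1.64 to -0.27, adjusted p = 0.184). Both genes went down in steps from Normal over NMO to NMO+CL in their group means, and of the steps only the whole distance from Normal to NMO+CL passed the test.

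Ccl9 and Ccl6 are neighbours in the second chromosome 11 cluster, which starts 1220 kb after the Ccl1 gene that closes the first. The second cluster holds Ccl5 (chr11:83525778-83530518, minus strand), Ccl9 (chr11:83572919-83578636, minus strand), Ccl6 (chr11:83587882-83593087, minus strand), Ccl3 (chr11:83647844-83649355, minus strand) and Ccl4 (chr11:83662584-83664683, plus strand). Ccl24 lies apart from both clusters at chr5:135569937-135573049 on the minus strand. Since Ccl6 and Ccl9 were the pair called lower together, the 250 bases before the start of each are shown (RefSeq, GRCm38.p6, minus strand, chr11:83593088-83593337 for Ccl6 and chr11:83578637-83578886 for Ccl9), with motifs in capitals.
Ccl6: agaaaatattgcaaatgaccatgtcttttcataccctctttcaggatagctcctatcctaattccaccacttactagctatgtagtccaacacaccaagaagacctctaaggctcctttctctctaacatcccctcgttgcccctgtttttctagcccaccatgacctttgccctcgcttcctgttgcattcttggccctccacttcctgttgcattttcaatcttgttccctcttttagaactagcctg
Ccl9: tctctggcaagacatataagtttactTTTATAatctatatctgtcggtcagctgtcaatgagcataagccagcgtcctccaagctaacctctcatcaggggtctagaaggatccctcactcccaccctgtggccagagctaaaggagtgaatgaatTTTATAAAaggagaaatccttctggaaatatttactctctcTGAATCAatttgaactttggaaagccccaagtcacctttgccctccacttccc

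The Ccl6 stretch held none of the 4 motifs, and neither did that of Ccl3. The Ccl9 stretch held the TATA letters 224 to 219 bases before the start and, on both strands with an overlap, between 94 and 87 bases before it, and an AP-1 match (TGAATCA) 53 to 47 bases before it. Ccl6 and Ccl9 were identical at 47.2% of alignment columns, within the range of the other pairs. With no motif in the Ccl6 stretch, none of the 4 could be shared by these 2 promoters. This describes the letters alone, and a link to the transcript levels was not tested.

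The make-up of the CC chemokine counts also differed between the groups. Summed over the 10 genes, the level was 630 ± 92.3 CPM in Normal (527 to 705), 1393 ± 529 in NMO (793 to 1794) and 758 ± 162 in NMO+CL (590 to 912). NMO replicate 3, the lowest NMO library, was within the NMO+CL range. Ccl12 made up 6.01% ± 1.96 of the CC chemokine counts in Normal libraries and 52.9% ± 3.37 in those of NMO. The share was 33.7% ± 18.1 in NMO+CL, where the 3 libraries ran from 17.3% to 53.2%. In NMO replicate 3, despite its low sum, Ccl12 took 49.6%, close to the 56.4% and 52.8% of the other two NMO libraries. These shares are descriptions with no test.

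**Figure D3:**
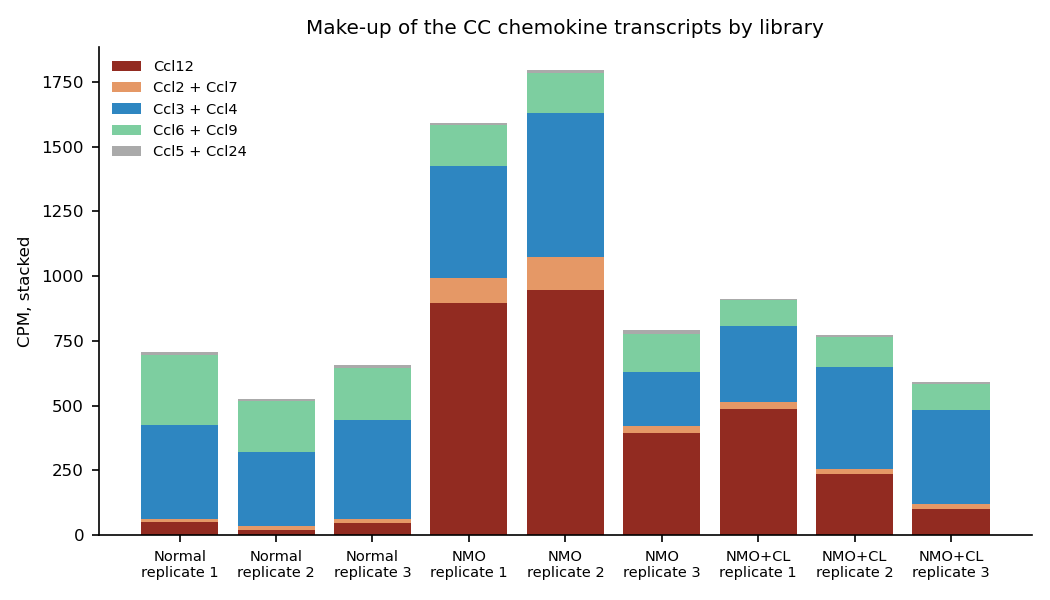
Stacked CPM (vertical axis, linear from 0) of 5 groups of CC chemokines in each of the 9 libraries. Ccl12 took about as large a part of the stack in NMO replicate 3 as in the other NMO libraries, although the whole stack was lower (793 CPM against 1794 in NMO replicate 2).

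Ccl3 and Ccl4 together held 54.6% ± 3.16 of the counts of Normal libraries, against 28.2% ± 2.52 for NMO and 48.2% ± 14.9 for NMO+CL. Ccl6 and Ccl9 made up 35.6% ± 4.03 for Normal, 12.4% ± 5.39 for NMO and 14.5% ± 3.22 for NMO+CL, so their share was low in both injected groups. The pair Ccl2 and Ccl7 made up 2.24% ± 0.822, 5.57% ± 1.78 and 2.71% ± 0.417. A share falls when another member rises, and the lower shares of Ccl3 and Ccl4 in NMO stand beside CPM that did not pass the test against Normal.

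Ratios between cluster neighbours need no scaling of the libraries. There were 1.19, 0.696 and 3.61 Ccl2 counts per Ccl7 count in the Normal libraries and 1.82, 3.07 and 1.41 in NMO, but 8.75, 6.79 and 11.5 in NMO+CL. The NMO+CL libraries were above all 6 others in this ratio, as Ccl7 was at 8 to 20 counts there while Ccl2 was at 92 to 175. For Ccl12 per Ccl7 count the groups were fully apart, with 12.5, 2.36 and 11.7 in Normal, 26.2, 30.4 and 33.2 in NMO, and 166, 104 and 79.6 in NMO+CL. Ccl12 per Ccl2 count overlapped between the groups, with means of 5.72 ± 4.16, 16 ± 6.99 and 13.7 ± 6.19. Among the Ccr2 ligands, the ratios that set NMO+CL apart were those with Ccl7.

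Ccl3 per Ccl4 count was 1.26, 1.36 and 1.39 in Normal, 1.88, 1.19 and 1.51 in NMO, and 2.14, 2.8 and 1.86 in NMO+CL. All NMO+CL libraries were above Normal, and the lowest of them was just under NMO replicate 1. Ccl6 per Ccl9 count overlapped between the groups (2.56 ± 0.551, 2.56 ± 0.703 and 4.09 ± 1.84).

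**Figure D4:**
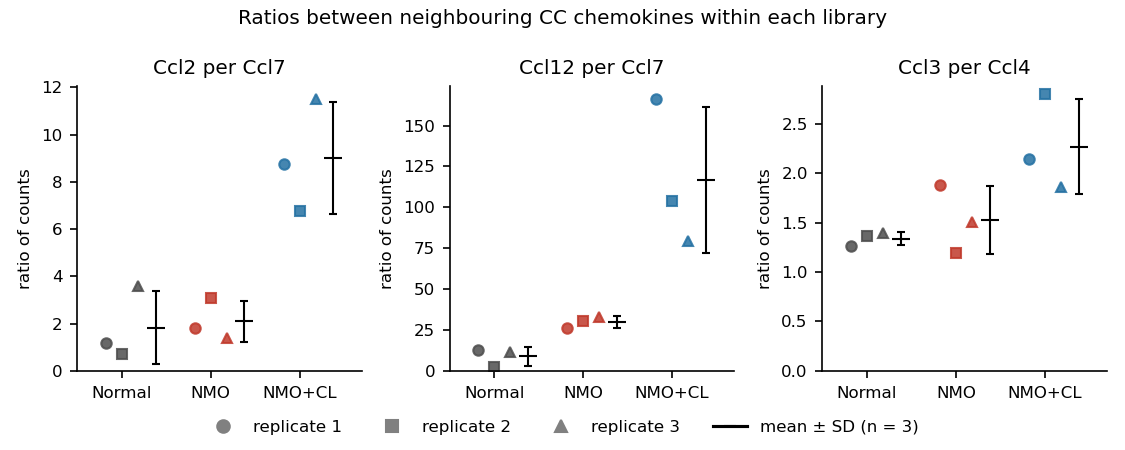
Counts of 1 CC chemokine divided by those of a cluster neighbour (vertical axes, linear from 0) in each library, with mean ± SD (n = 3). NMO+CL libraries had 6.79 to 11.5 Ccl2 counts per Ccl7 count, above the 0.696 to 3.61 of the other libraries, and the 3 groups were apart in Ccl12 per Ccl7.

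Of 13 CC chemokine receptor genes analysed 7 were tested, and 0 were called in each of the 3 comparisons. Over all tested genes the shares called were 0.472% higher and 0.0244% lower in NMO against Normal, 0.529% and 1.07% in NMO+CL against NMO, and 4.79% and 4.43% in NMO+CL against Normal, so 0 of 7 is near the background. Ccr8, Ccr10 and Ackr4 had 0 counts in every library.

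Ccr1, the receptor of Ccl3, Ccl5, Ccl6 and Ccl9, had 16, 15 and 12 counts in Normal, 67, 107 and 57 in NMO and 73, 96 and 31 in NMO+CL. Levels were 2.28 ± 0.266, 10.1 ± 2.36 and 10.4 ± 5.3 CPM, and every library of the injected groups was above every Normal library. It was the 1 receptor of the 7 with ranges apart, where 9.21% of all tested genes were higher with ranges apart in NMO and 13.8% in NMO+CL against Normal. The log2 fold change was 2.14 in NMO against Normal (95% interval 0.72 to 3.57, adjusted p = 0.231) and 2.18 in NMO+CL against Normal (95% interval 0.76 to 3.61, adjusted p = 0.052). Neither was called.

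Ccr2, the receptor of Ccl2, Ccl7 and Ccl12 and a marker of monocytes, had 110, 24 and 113 counts in Normal, 156, 56 and 122 in NMO and 59, 11 and 40 in NMO+CL. Its levels were 13.4 ± 8.5, 15.3 ± 7.43 and 5.6 ± 3.48 CPM, replicate 2 was the lowest library in each group, and the ranges overlapped. The log2 fold change in NMO+CL against NMO was -1.44 (95% interval -2.90 to 0.02, adjusted p = 0.41).

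**Figure D5:**
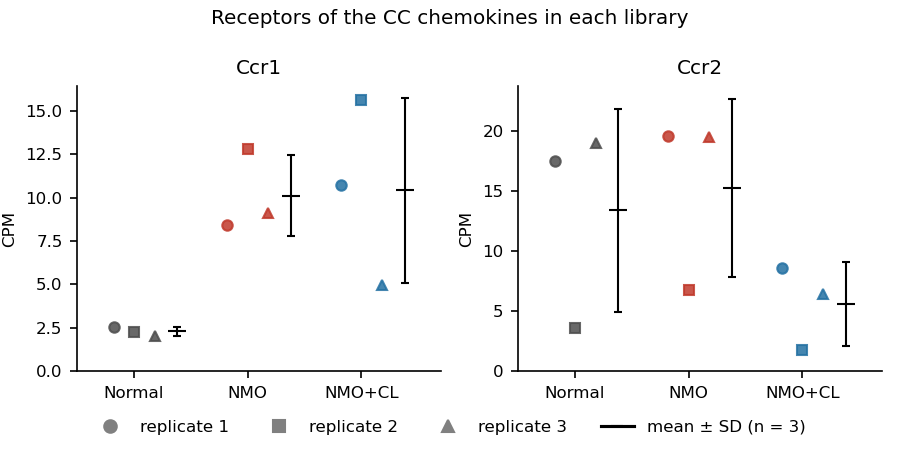
CPM of Ccr1 and Ccr2 (vertical axes, linear from 0) in every library, with mean ± SD (n = 3). Ccr1 was at 2.02 to 2.55 CPM in Normal and at 4.96 to 15.6 in the injected groups, whereas Ccr2 overlapped between the groups.

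Other CC chemokines were sparse. Of 13 further family members with an entry, 2 were tested (Ccl25 and Ccl27a) and 0 were called in each comparison, while Ccl11, Ccl19, Ccl20, Ccl21a and Ccl26 had 0 counts in every library. Genes of the pathways known to induce chemokines were read from lists. Of 18 feedback genes of NF-kB and MAP kinase signalling 0 were called in NMO against Normal and 0 in NMO+CL against NMO, where 0.472% and 0.529% of all tested genes were called higher. Their summed level was 1338 ± 262, 1608 ± 168 and 1901 ± 270 CPM for Normal, NMO and NMO+CL, with overlapping ranges between neighbouring groups. In NMO+CL against Normal 3 of the 18 were called higher (Bcl3, Nfkbia and Tnf), where 4.79% of all tested genes were. In NMO against Normal ranges were apart for 2 of the 18 that were higher and 2 that were lower. The shares of all tested genes were 9.21% and 8.2%, and the median log2 fold change of the 18 was 0.04. Bcl3, an NF-kB cofactor, was 1 of the 2 that were higher, with a log2 fold change of 2.34 that was not called (adjusted p = 0.147). Of 16 interferon response genes 15 were tested and 0 were called in each comparison. Of 18 early genes of tissue dissociation, which the warm enzyme step can induce together with Ccl3 and Ccl4, 0, 1 and 2 were called higher in the 3 comparisons (Ier3, and then Ier3 and Ier2), beside the same shares of all genes. Their summed level was 6355 ± 1393 CPM for Normal, 5966 ± 787 for NMO and 6137 ± 551 for NMO+CL, and their part in the chemokine levels was not tested.

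Markers of other cells that can make these chemokines were also measured, and their calls stand beside the shares of all tested genes called higher (0.472%, 0.529% and 4.79% in the 3 comparisons) or lower (0.0244%, 1.07% and 4.43%). The 12 monocyte markers, all of them detected, summed to 73.6, 42 and 52.8 CPM in Normal, 158, 72.7 and 80.7 in NMO and 162, 99 and 77 in NMO+CL. Of the 12, 0 were called in NMO against Normal, 0 in NMO+CL against NMO and 1 higher in NMO+CL against Normal (Fn1). Their median log2 fold change in NMO against Normal, where Ccl12 and Ccl2 rose, was 1.11, and in NMO+CL against NMO, where Ccl7 fell, it was 0.16. In NMO+CL against NMO the monocyte markers went both ways. Ranges were apart for 1 that was higher and 2 that were lower, where the shares of all tested genes were 7.89% and 9.22%. Ccl12 was at 897, 947 and 394 CPM in these NMO libraries and at 485, 236 and 102 in those of NMO+CL. The 11 neutrophil markers analysed summed to 600, 101 and 129 CPM in Normal, 339, 169 and 496 in NMO and 1441, 319 and 552 in NMO+CL, with 0 called in each comparison. NMO+CL replicate 1, the highest of these, was also the NMO+CL library with the most Ccl12. The other libraries did not follow that order. In NMO, replicate 3 had the highest neutrophil sum (496 CPM) and the least Ccl12 (394 CPM). In NMO+CL, replicate 3 had a higher sum than replicate 2 (552 against 319 CPM) and less Ccl12 (102 against 236 CPM). Of 12 border macrophage markers 7 were tested and 1 was called, higher in NMO+CL against Normal (Stab1). Their sums ran from 308 to 481, 215 to 367 and 438 to 691 CPM. Most of this was Cbr2 and Stab1, with means of 200 and 171 CPM in Normal, 105 and 189 in NMO and 276 and 290 in NMO+CL. Every remaining border macrophage marker averaged 15.7 CPM or less in each group. Of 12 astrocyte and oligodendrocyte markers 8 were tested, and 3 were called, lower in NMO+CL against Normal (Cnp, Slc1a3 and Slc1a2). Their sums ran from 280 to 315 CPM in Normal, 201 to 204 in NMO and 120 to 196 in NMO+CL, with the 3 groups apart. Slc1a3 was the largest part of the sums, with means of 176, 108 and 95.5 CPM, and not all markers fell. Aqp4 was at 5.06, 8.49 and 7.66 CPM on average, with overlapping ranges. In NMO against Normal ranges were apart for 1 of the 8 tested, which was lower, beside 8.2% of all tested genes. Of 14 lymphocyte markers analysed 2 were tested and 0 were called in each comparison. The part of these cells in the chemokine levels was not tested.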

How the data were processed

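The authors prepared QuantSeq 3′ libraries, read single ends of 75 bases, aligned with Bowtie2 and counted reads over genes by bedtools coverage, multiple alignments included. The submitters' processing notes name mm10. Versions, annotation and use of strand are not given in the sources used here. The deposited values are raw read counts for 23282 entries per library, and the 35 symbols on more than 1 entry were summed.

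The tools were edgeR 4.0.16 and R 4.3.3. Genes passing filterByExpr (minimum count 10, minimum total 15) were scaled by TMM and fitted by the quasi-likelihood model over all 9 libraries with 1 coefficient per group. Tests were two-sided, with Benjamini-Hochberg adjustment over 12292 genes in each comparison. The common biological coefficient of variation was 0.519. The study describes its replicates as independent, each a pool. Alternatives were RLE scaling, library totals alone, omission of Rn45s, no filter on low counts, DESeq2 1.42.0, limma-voom (limma 3.58.1), only the 2 groups compared, a replicate block, and omission of each library. Floors cover counting error only.

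All 10 CC chemokines are named. Other genes could be named only as receptors or sort markers or, up to 4 per list and comparison, if called, and not all of these are named. Aqp4, Cbr2, Ccl25, Ccl27a and genes without counts were named after their values were seen. The members and lists were chosen with earlier results of these data known. An item of the lists is not reported here.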

Additional observations from a re-analysis of the deposited data

How the results depend on the processing

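Over all chemokines, comparisons and alternatives, 433 fold changes kept their direction and their side of the threshold, 9 gained a call, 10 lost one and 7 turned their sign. The number of chemokines called higher in NMO against Normal, 2 in the report, was 3 with no filter on low counts and with the DESeq2 Wald test (Ccl2, Ccl7 and Ccl12), and 1 with limma-voom, with only the 2 groups compared and with the replicate block (Ccl12). It ran from 1 (Ccl12) to 2 when single libraries were left out. The number called lower in NMO+CL against NMO, 1 in the report, was 3 with no filter on low counts (Ccl2, Ccl7 and Ccl12) and 2 with the replicate block (Ccl7 and Ccl12), and ran from 0 without NMO replicate 1 to 2 without NMO replicate 3 or NMO+CL replicate 1. The number called higher in NMO+CL against Normal, 1 in the report, was 2 with no filter on low counts (Ccl2 and Ccl12). The number called lower there, 2 in the report, ran from 1 without Normal replicate 1 to 2. The cause of these shifts was not tested.

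Values that turned their sign were not called under any alternative. Leaving out single libraries, Ccl4 in NMO against Normal ran from -0.34 to 0.44 on the log2 scale. In NMO+CL against NMO, Ccl3 ran from -0.26 to 0.25, with -0.13 without NMO+CL replicate 2 and -0.02 with library totals alone, Ccl5 ran from -0.86 to 0.22, and Ccl24 ran from -1.33 to 0.37, with 0.25 under limma-voom.

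Library totals alone moved the median log2 fold change of all genes by 0.11 in NMO against Normal, where 96 genes were called in place of 61. Same-numbered libraries of different groups did not deviate together (correlations -0.0148 to 0.0302), so the replicate numbers were not treated as pairs. The replicate block gave 53 calls in place of 61 in NMO against Normal, 197 in place of 196 in NMO+CL against NMO and 1124 in place of 1134 in NMO+CL against Normal. Intervals of Ccl5 and Ccl24 held changes of more than 2-fold in each comparison.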
